A study of Mus musculus with 3 samples.

Results

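The genes described here are 37 integrins and focal adhesion genes, the members, out of 56748 genes in the deposited table. They were taken by gene symbol from a list of integrin chains, of the cytoplasmic proteins that join them to actin, and of the LIM-domain, Z-disc and caveolar proteins found at the same sites in cardiomyocytes. All 37 symbols were found, each with 1 gene identifier. Expression was measured by RNAseq in adult ventricular cardiomyocytes (ACMs) isolated from the hearts of wild-type mice 8 to 10 weeks old and cultured on laminin. Cells were plated for 3 to 4 h with 5% serum and then kept without serum in M199 medium with 0.1% BSA, 10 mM of the contraction inhibitor BDM, insulin-transferrin-selenium and lipid. They received vehicle (0.1% BSA), 10 ng/mL human IL-6 or 10 ng/mL mouse oncostatin M (OSM) for 16 h. RNA samples were pooled before sequencing, so each condition is 1 library, without replicates, and how many animals or cultures went into a pool is not given in the sources used here.

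Integrins are receptors made of an alpha and a beta chain that bind matrix proteins outside the cell and, through talin and kindlin, the actin cytoskeleton inside it. In striated muscle they sit mainly at costameres, which tie the Z-discs of the sarcomere to the membrane, and at the intercalated disc. The alpha 7 beta 1 integrin is the main laminin receptor of differentiated muscle. Caveolin-3 is the muscle form of the protein that shapes caveolae, and zyxin, VASP and the LIM-domain proteins are recruited to adhesions and Z-discs under mechanical load. OSM and IL-6 are cytokines that both signal through gp130.

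The libraries held 24939980 counts with vehicle, 26362446 with IL-6 and 30773001 with OSM, of which the members took 0.448%, 0.452% and 0.524%. Mitochondrial genes took 17.4% of counts with vehicle, 16.1% with IL-6 and 13.6% with OSM. The summed level of 8 cardiomyocyte markers was 8633 fpkm with vehicle, 8910 with IL-6 and 11114 with OSM, and the cells carried the markers of their label. Ryr2 and Ttn, both long genes, were lower with OSM than with vehicle, at -1.53 and -1.64 on the log2 scale. Every one of the 9 fibroblast markers was under 1 fpkm in all libraries, and their sum was 0.980 fpkm with vehicle, 1.13 with IL-6 and 1.15 with OSM. For 9 endothelial markers the sums were 8.92, 8.90 and 9.61 fpkm, and for 8 smooth muscle and pericyte markers 13.6, 13.6 and 16.1 fpkm, mostly Acta2. The 9 macrophage and leukocyte markers summed to 13.8 fpkm with vehicle, 14.3 with IL-6 and 39.9 with OSM, mostly Cd68, which was called higher with OSM. In this list Ptprc, C1qa, C1qb and Cd3e were at 0 in each library, and others were detected, Csf1r with 187, 166 and 209 counts, Lyz2 with 13, 4 and 31, Adgre1 with 8, 0 and 6 and Itgam with 0, 0 and 4. Lyz2 was above no change with OSM, at 1.01 (0.04 to 2.07) on the log2 scale. The sums of 5 Schwann and neural markers were 1.56, 1.75 and 1.34 fpkm, with Sox10 and S100b at 0, and those of 5 mesothelial and epicardial markers 0.873, 1.23 and 0.946 fpkm. The part of other cells in the members' values was not tested.

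A ratio between libraries is given as a log2 fold change of counts scaled with edgeR's TMM factors, with an exact binomial (Clopper-Pearson) interval at 95%. The intervals describe the counting error of reads alone. Reads copied by PCR and not marked by molecular identifiers need not be separate molecules, so the intervals may be too narrow even for counting error. Each comparison is of libraries, not of conditions. A gene was called higher or lower where its whole interval lay beyond 2-fold. A weaker description, a ratio above or below no change, was used where the whole interval lay on one side of 0. No P-value can be given with 1 library per condition.

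In the OSM library, 3 of the 36 members that could be compared with vehicle were called higher and 0 were called lower. They were Cav3 (caveolin-3), Itga7 (the alpha 7 integrin chain) and Pdlim7 (Enigma, a PDZ and LIM protein of the Z-disc and actin fibres). Among all 15537 genes compared, 581 were called higher, 3.74%, and 844 lower, 5.43%. By the weaker description, 20 members were above no change, 11 below, and 5 had intervals that held it, where 33.4% of all genes were above and 33.1% below. Members were counted more deeply than most genes, with a median of 848 counts with vehicle against 271 for the genes compared, and deeper counts give narrower intervals. Among genes with at least 1000 counts over both libraries, 46.2% were above no change and 38.4% below, and of the 27 members as deep, 17 were above and 6 below. The median log2 fold change of the 36 members was 0.19 (range -1.05 to 2.13), where that of all genes was 0.00. In RNA from whole cultures, fewer cells of a type and less RNA per cell cannot be told apart.

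In the IL-6 library, 0 of 36 members were called, where 1.77% of 15472 genes were called higher and 1.74% lower. By the weaker description 5 members were above no change, 6 below, and 25 had intervals that held it, where 19.6% of genes were above and 19.1% below. The median of the members was -0.01. Both cytokine comparisons use the same vehicle library, so they are not independent of each other.

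**Figure D1:**
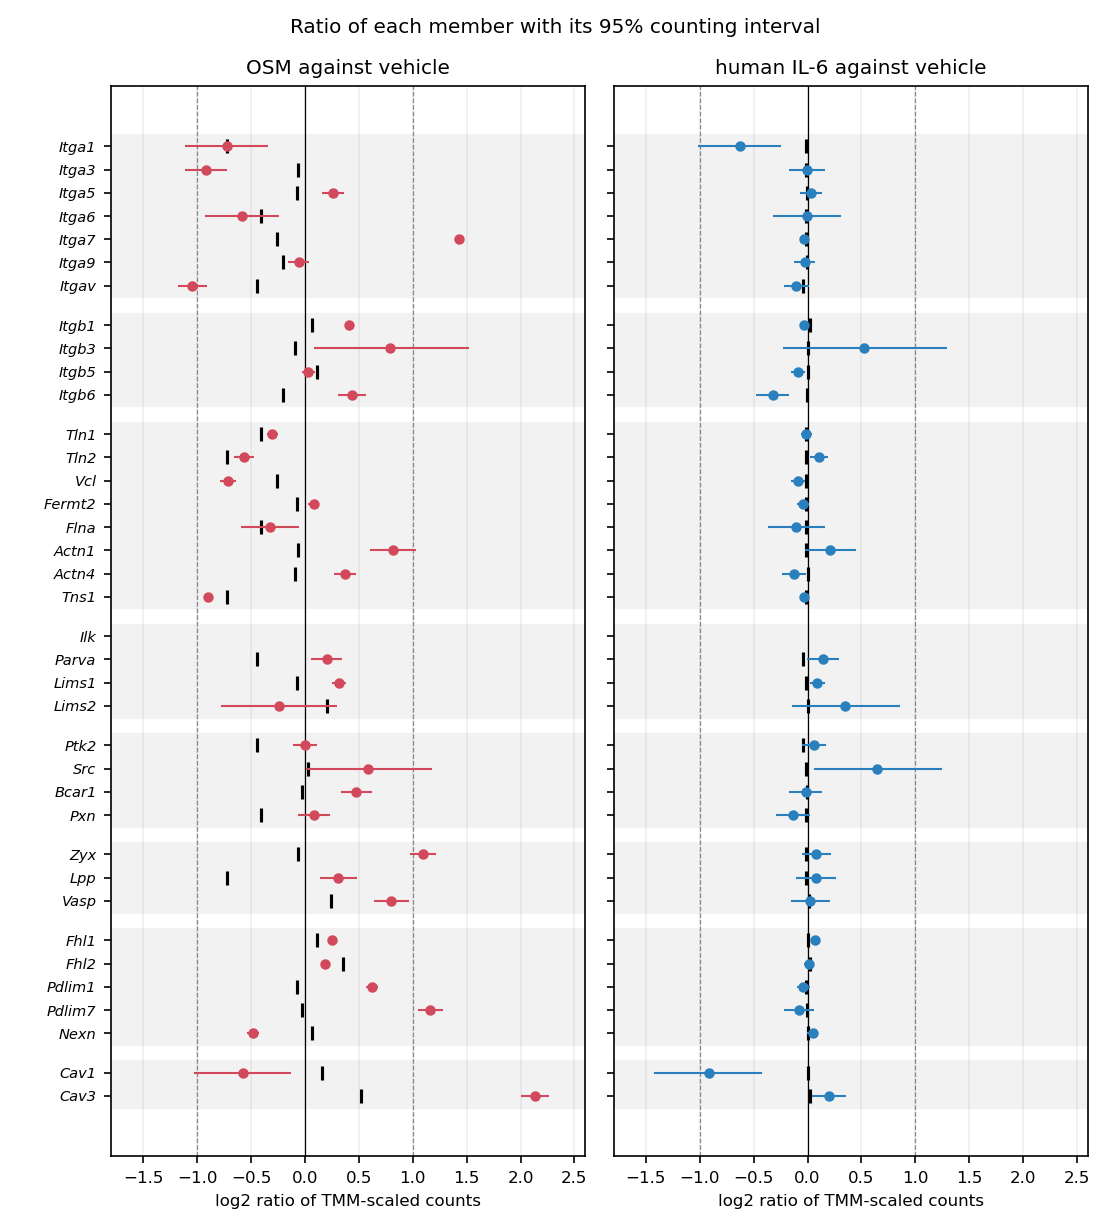
Log2 ratio of TMM-scaled counts (x axis) of each member (y axis, by role) in OSM against vehicle (left) and human IL-6 against vehicle (right), with bars for the 95% counting interval. Dashed lines mark 2-fold, and black ticks the median of protein-coding genes of like length. Cav3, Itga7 and Pdlim7 lie beyond the line at the right with their whole intervals at left, and no member does so in the right panel.

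Cav3 showed the largest ratio of the members in the OSM library. It had 594 counts with vehicle, 730 with IL-6 and 3083 with OSM, which is 20.3, 23.3 and 89.2 fpkm. Vehicle and IL-6 lay close together and OSM far above both. The OSM library was 4.39-fold (4.02 to 4.80) above vehicle, a log2 fold change of 2.13 (2.01 to 2.26), and 1.94 above IL-6 on the same scale. With IL-6 the log2 fold change against vehicle was 0.20 (0.04 to 0.36). Cav3 has 2 exons on the plus strand of chromosome 6 (GRCm39, 112436466 to 112449833), and no exonic base of it is shared with another gene.

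Itga7, the most abundant alpha chain, had 11437 counts with vehicle, 12008 with IL-6 and 36331 with OSM. Its level was 55.6, 54.5 and 149 fpkm. The log2 fold change with OSM was 1.43 (1.40 to 1.46) against vehicle and 1.46 against IL-6, and with IL-6 it was -0.03 (-0.07 to 0.01). Again OSM stood far above both other libraries, and the IL-6 interval held no change. The gene lies on chromosome 10 (GRCm39, 128769645 to 128794155, plus strand), and its canonical transcript has 25 exons.

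Pdlim7 had 848 counts with vehicle, 858 with IL-6 and 2241 with OSM, or 6.91, 6.53 and 15.5 fpkm. Its log2 fold change was 1.16 (1.05 to 1.28) in OSM against vehicle, -0.08 (-0.22 to 0.06) in IL-6 against vehicle and 1.24 in OSM against IL-6. It lies on the minus strand of chromosome 13 (GRCm39, 55643608 to 55661489), with 13 exons in its canonical transcript. Of the 3 called members it was nearest to the 2-fold line. With total counts in place of TMM its log2 fold change was 1.10 and it was no longer called.

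OSM against IL-6 gave the same 3 called members, Cav3, Itga7 and Pdlim7, and 0 called lower, where 4.24% of 15544 genes were called higher and 5.42% lower. The median of the members was 0.18. This comparison shares the OSM library with OSM against vehicle.

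The intervals do not include variation between cultures. When a coefficient of variation of 0.2 in each library was assumed, Cav3 was the only called member in OSM against vehicle and in OSM against IL-6, and with 0.1 the called members were Cav3 and Itga7. The share of all genes called under these assumptions was not computed.

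**Figure D2:**
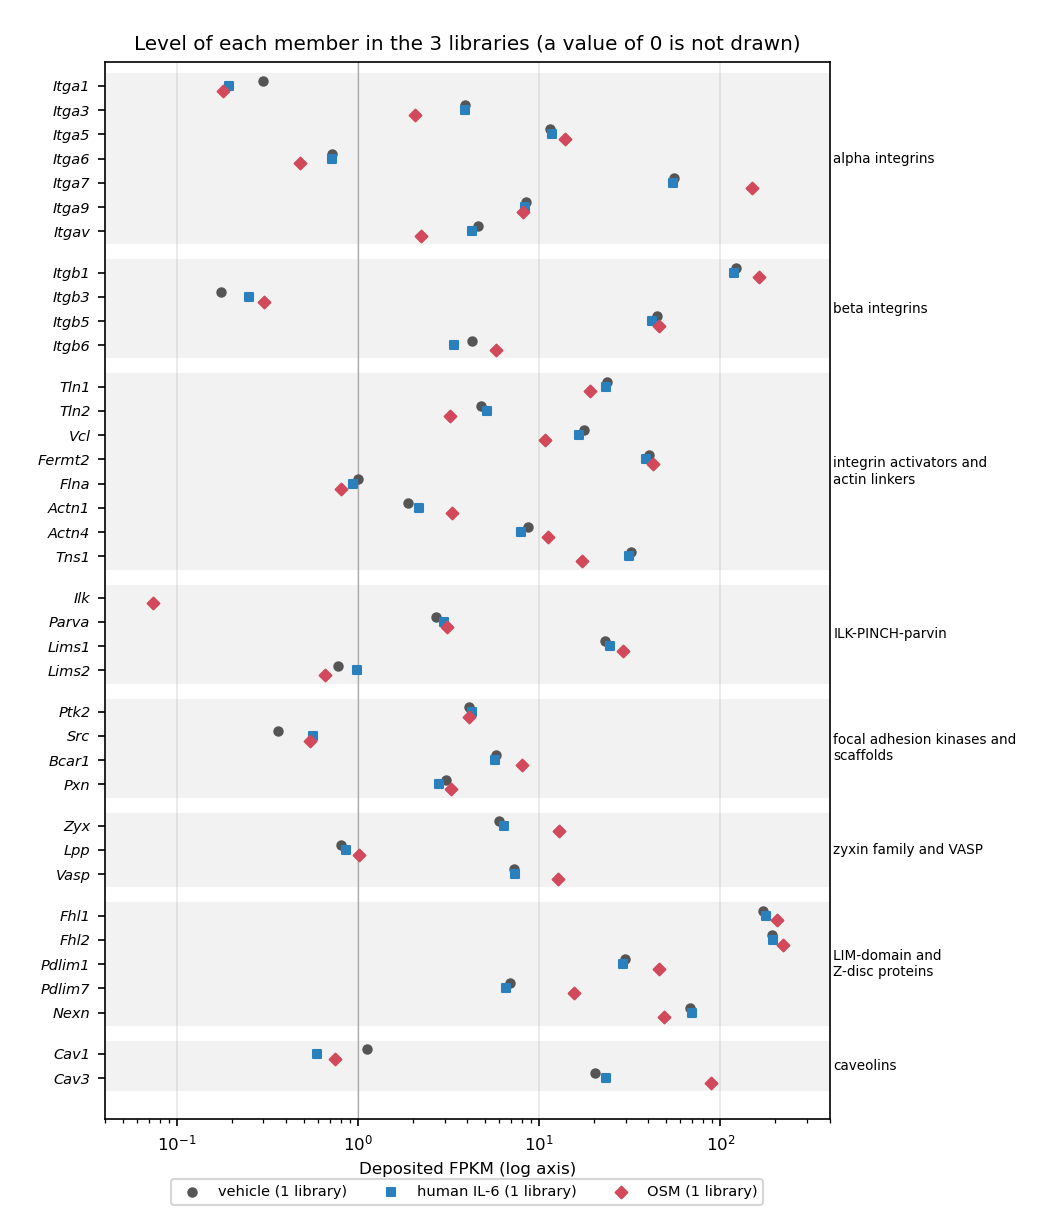
Deposited fpkm of each member (x axis, log scale) in the vehicle, human IL-6 and OSM libraries, 1 point per library, with members grouped by role on the y axis. Vehicle and IL-6 points lie close together for most members, while Cav3, Itga7, Pdlim7, Zyx and Vasp have the OSM point to the right and Itgav, Itga3, Tns1 and Vcl to the left.

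The 7 alpha chains among the members did not share a direction with OSM. Of the 7, Itga7 was called higher, Itga5 was also above no change, Itga9 held it, and Itgav, Itga3, Itga1 and Itga6 were below. Itgav, which pairs with several beta chains to bind fibronectin and vitronectin, had 1240 counts with vehicle, 1237 with IL-6 and 710 with OSM. Its OSM-to-vehicle log2 ratio was -1.05 (-1.18 to -0.91), the lowest of the members, and the interval reached inside 2-fold, so it was not called. Itgav lies on chromosome 2 (GRCm39, 83554741 to 83637260, plus strand).

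Itga3, another laminin-binding chain, had 560 counts with vehicle, 598 with IL-6 and 351 with OSM. That is a log2 fold change of -0.92 (-1.11 to -0.72) with OSM and of -0.01 with IL-6. Itga1, a collagen-binding chain, had 140, 97 and 100 counts and was below no change in both cytokine libraries, at -0.73 (-1.11 to -0.35) with OSM and -0.63 (-1.02 to -0.25) with IL-6. It is the only alpha chain below no change with IL-6. Both had fewer counts with OSM than with vehicle, Itga1 at much the lower level. Exons of other genes cover 27.0% of the canonical Itga1 transcript.

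Itga6, which also forms laminin receptors, was under 1 fpkm in every library and had 166 counts with vehicle, 177 with IL-6 and 131 with OSM (-0.58, -0.93 to -0.24). Itga5, the fibronectin receptor chain, stood at 11.5 fpkm with vehicle, 11.8 with IL-6 and 13.8 with OSM, and its log2 ratio of OSM to vehicle was 0.26 (0.16 to 0.36). Itga9 stood at 8.48, 8.32 and 8.15 fpkm, and its interval held no change with either cytokine.

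Because alpha and beta chains work as pairs, their levels per length were also set side by side. Over all 18 alpha chain genes, the sum was 85.8 fpkm with vehicle, 84.3 with IL-6 and 177 with OSM. Itga7 made up 64.7% of it with vehicle, 64.6% with IL-6 and 84.4% with OSM. The share of Itga5, the next most abundant, was 13.4%, 14.0% and 7.79%. Over the 8 beta chain genes, Itgb1 made up 71.3% with vehicle, 72.2% with IL-6 and 75.8% with OSM, of sums of 171, 165 and 214 fpkm. The fpkm of Itga7 was 0.456 of that of Itgb1 with vehicle, 0.457 with IL-6 and 0.920 with OSM. The deposited lengths are 8138 bases for Itga7 and 4081 for Itgb1, while their canonical transcripts have 4097 and 5011. Ratios and shares between genes therefore depend on the length used, and so does which of Itga7 and Itgb1 is higher.

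**Figure D3:**
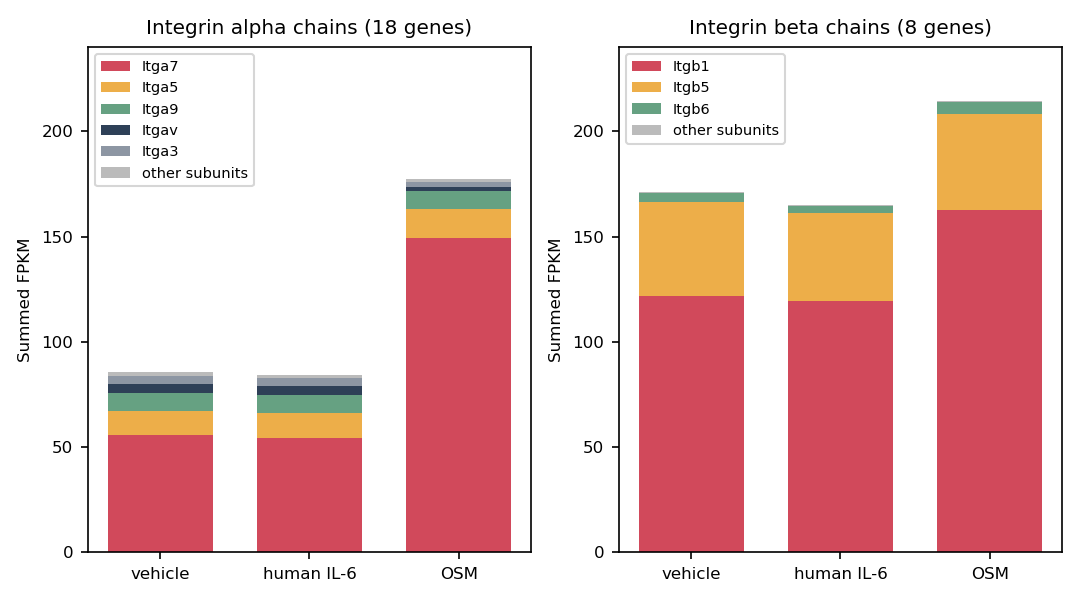
Summed fpkm of the 18 integrin alpha chain genes (left) and the 8 beta chain genes (right) in the 3 libraries, stacked by gene, 1 library per bar. The alpha sum is 177 fpkm with OSM against 85.8 with vehicle, where Itga7 alone is at 149 against 55.6, while the beta sum is 214 against 171.

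Among beta chains, Itgb1, the partner of the laminin, collagen and fibronectin receptors and 1 of 3 members over 100 fpkm with vehicle, had 12591 counts with vehicle, 13181 with IL-6 and 19798 with OSM. Its log2 fold change was 0.41 (0.38 to 0.44) with OSM and -0.03 (-0.07 to 0.00) with IL-6. It lies on the plus strand of chromosome 8 (GRCm39, 129412135 to 129459681). Itgb5, which pairs with the alpha v chain, was at 44.6 fpkm with vehicle, 42.0 with IL-6 and 45.6 with OSM, and its OSM interval held no change. A near-identical copy elsewhere in the genome matches 10.5% of the Itgb5 sequence, so some of its reads may be uncertain.

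Itgb6, a beta chain known best from epithelia, had 764 counts with vehicle, 655 with IL-6 and 1224 with OSM. The OSM ratio was above no change, 0.44 (0.31 to 0.57), and the IL-6 ratio below it, -0.32 (-0.47 to -0.17). Itgb3 had only 26, 40 and 53 counts, and its log2 fold change of 0.79 with OSM had an interval from 0.08 to 1.52.

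The 8 integrin activators and actin linkers included 3 members above and 5 below no change with OSM, and none was called. Tns1 (tensin-1, which binds beta chains and actin) had 13354 counts with vehicle, 14007 with IL-6 and 8486 with OSM, or -0.90 (-0.94 to -0.86) in OSM against vehicle on the log2 scale. Vcl (vinculin, which binds talin and actin) had 3666, 3686 and 2639 counts, a log2 fold change of -0.72 (-0.79 to -0.64). Vehicle and IL-6 lay together for both genes, at 32.1 and 31.4 fpkm for Tns1 and at 17.7 and 16.6 for Vcl. Exons of Ap3m1 on the opposite strand cover 38.4% of the canonical Vcl transcript, and Ap3m1 itself had 1068, 1151 and 1034 counts.

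The talins, which switch integrins to their active form, were both below no change with OSM, Tln1 at -0.30 (-0.36 to -0.25) and Tln2 at -0.57 (-0.66 to -0.48). Tln1 was the more abundant, at 23.5 fpkm against 4.77 for Tln2 with vehicle. With IL-6, Tln2 lay slightly above no change, at 0.11 (0.02 to 0.19). Flna (filamin A) was at 1.00, 0.933 and 0.800 fpkm and at -0.33 with OSM, and a near-identical copy matches 6.41% of its sequence. Fermt2 (kindlin-2, the main kindlin of cardiomyocytes) had 40.1, 38.9 and 42.4 fpkm and was at 0.08 (0.03 to 0.13) with OSM.

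The non-muscle alpha-actinins, which cross-link actin, were above no change with OSM. Actn1 had 263 counts with vehicle, 326 with IL-6 and 547 with OSM, or 0.81 (0.60 to 1.03) in OSM against vehicle on the log2 scale, and Actn4 had 1340, 1313 and 2051 counts, a log2 fold change of 0.37 (0.27 to 0.47). With IL-6, Actn4 was at -0.13 (-0.24 to -0.02). Both were far below the sarcomeric alpha-actinin: Actn4 had 0.0233 of the fpkm of Actn2 with vehicle and 0.0280 with OSM.

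For the complex of integrin-linked kinase, PINCH and parvin, 3 of 4 members could be compared. Lims1 (PINCH-1) had 3002 counts with vehicle, 3425 with IL-6 and 4423 with OSM, and Parva (alpha-parvin) 691, 815 and 939. Their log2 fold changes with OSM were 0.32 (0.25 to 0.39) and 0.20 (0.06 to 0.35). Lims2 (PINCH-2) had 60, 82 and 60 counts, and its interval with OSM held no change.

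Ilk, the pseudokinase at the centre of this complex, was listed at 0 counts with vehicle, 0 with IL-6 and 6 with OSM, so no fold was given. A count of 0 allows up to 0.120 CPM with vehicle and 0.114 CPM with IL-6, provided that reads of the gene can be counted. Ilk lies on chromosome 7 (GRCm39, 105385799 to 105392132, plus strand), where exons of genes on the opposite strand cover all 13 exons of its canonical transcript, 100% of its bases. Taf10 covers 85.2% of them and Rrp8 the other 14.8%. Taf10 had 1085, 1298 and 1940 counts and Rrp8 563, 694 and 835. Whether counting used the strand is not given in the sources used here. The part of this overlap in the Ilk count was not tested. Of the other members, 24 share under 5% of their exonic bases with another gene.

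Of the focal adhesion kinases and scaffolds, none was called. Bcar1 (p130Cas, a scaffold phosphorylated at adhesions) had 660 counts with vehicle, 698 with IL-6 and 1086 with OSM, and its log2 ratio to vehicle in the OSM library was 0.48 (0.34 to 0.62). Ptk2 (focal adhesion kinase) was at 4.09 fpkm with vehicle, 4.26 with IL-6 and 4.10 with OSM, and its OSM-to-vehicle log2 ratio was 0.00 (-0.11 to 0.11). Pxn (paxillin) was at 0.08, and its interval also held no change. Src had only 40, 67 and 71 counts, and it was above no change in both cytokine libraries, at 0.59 (0.01 to 1.18) with OSM and 0.64 (0.06 to 1.25) with IL-6.

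The zyxin family and VASP were all above no change with OSM, and none was called. Zyx (zyxin, which recruits actin regulators to strained filaments) had 820 counts with vehicle, 930 with IL-6 and 2068 with OSM, which is 6.01, 6.37 and 12.8 fpkm. The OSM library was 2.13-fold (1.97 to 2.32) above vehicle, so that only the lower end of the interval lay inside 2-fold. Zyx lies on chromosome 6 (GRCm39, 42326564 to 42337147, plus strand), and exons of Epha1, which had 2, 12 and 6 counts, cover 15.9% of its canonical transcript on the opposite strand.

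Vasp (an actin elongation factor that binds zyxin) had 480, 523 and 990 counts, a log2 fold change of 0.80 (0.64 to 0.96) with OSM. Exons on the opposite strand cover 30.5% of its exonic bases. Lpp, the zyxin relative with the longest gene length of the members, had 451, 511 and 661 counts and a log2 fold change of 0.31 (0.14 to 0.49). With IL-6 the intervals of Zyx, Vasp and Lpp held no change.

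Among the LIM-domain and Z-disc proteins, Fhl2, Fhl1 and Nexn were 3 of the 5 members with the highest fpkm with vehicle, and Pdlim1 and Pdlim7 were lower. Fhl2 had 9294 counts with vehicle, 10019 with IL-6 and 12480 with OSM, or 194, 195 and 220 fpkm, and Fhl1 16075, 18010 and 22649 counts, or 171, 179 and 204 fpkm. Both four-and-a-half-LIM-domain proteins bind titin at the sarcomere, and their log2 fold changes with OSM were small, 0.18 (0.14 to 0.22) for Fhl2 and 0.25 (0.22 to 0.28) for Fhl1. With IL-6, Fhl1 was at 0.06 (0.03 to 0.10) and the interval of Fhl2 held no change.

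Pdlim1, a PDZ and LIM protein that binds alpha-actinin, had 3949 counts with vehicle, 4118 with IL-6 and 7170 with OSM, and its log2 ratio of OSM to vehicle was 0.62 (0.56 to 0.68). Nexn (nexilin, an actin-binding protein of the Z-disc and the junctional membrane) went the other way from the rest of its group, with 67.7 fpkm with vehicle, 69.9 with IL-6 and 48.5 with OSM, which was -0.48 (-0.54 to -0.43) on the log2 scale. Nexn lies on the minus strand of chromosome 3 (GRCm39, 151942619 to 151971987). Exons on the opposite strand cover 37.4% of its exonic bases and 0% of its canonical transcript.

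The caveolins lay on opposite sides of no change with OSM. Cav1, the form of most non-muscle cells, had 97 counts with vehicle, 55 with IL-6 and 77 with OSM. On the log2 scale it was at -0.57 (-1.02 to -0.13) in the OSM library and -0.92 (-1.42 to -0.43) in the IL-6 library. The fpkm of Cav3 was 18.2 times that of Cav1 with vehicle, 39.5 times with IL-6 and 119 times with OSM. Cav1 is the member with the lowest ratio in the IL-6 library, at low counts.

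OSM-to-vehicle ratios fell with the length of genes over the whole table. In 20 classes of protein-coding genes of equal size by deposited gene length, the median log2 fold change with OSM went from 0.52 in the shortest class to -0.73 in the longest. In IL-6 against vehicle the medians of the shortest and longest classes were 0.03 and -0.02, and in OSM against IL-6 0.49 and -0.73. The members ran from 1157 bases (Cav3) to 22046 bases (Lpp), with a median of 5533 against 4526 for the protein-coding genes compared. When the median of its class was taken from each member, the median of the members was 0.34, and 25 members lay above and 11 below their class.

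The called members lay high in their classes. Cav3 was above 94.0% of the genes of its class, whose median was 0.52, Itga7 above 98.1% (median -0.26) and Pdlim7 above 92.6% (median -0.02). Zyx was above 93.2% of its class, and, with the class median taken off, at 1.16 it would also be called. Lpp, at 0.31 where its class had a median of -0.73, was above 92.0%.

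The members with the lowest ratios stood less far from their classes. Itga1, at -0.73, was 0.00 from the median of its class, and Tns1 was above 41.0% and Vcl above 25.8% of the genes of theirs. Itga3 was above 9.76% and Itgav above 16.3%. Cav1 was above 11.6% and Nexn above 18.9%. Tln2, below no change with OSM, was above 59.3% of its class and Tln1 above 56.4%. What sets the trend with length, and its part in these values, was not tested.

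**Figure D4:**
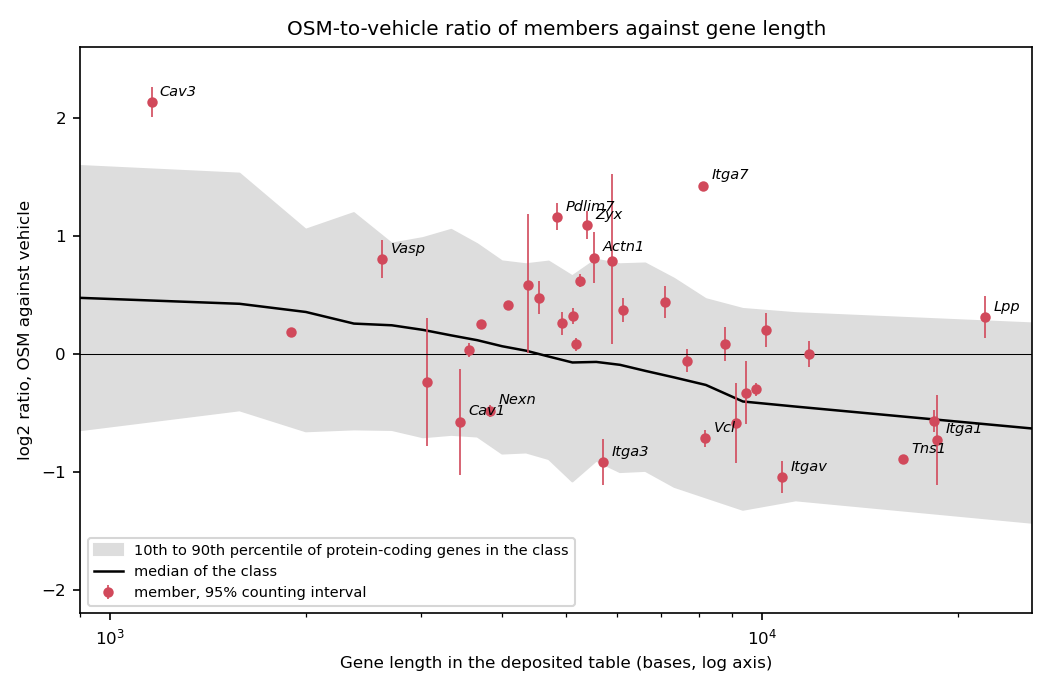
Log2 ratio of OSM against vehicle (y axis) of each member against its deposited gene length in bases (x axis, log scale), with bars for the 95% counting interval. The line is the median of 20 length classes of protein-coding genes and the band their 10th to 90th percentile. Cav3, Itga7, Pdlim7 and Zyx lie above the band, and Actn1, Itgb3 and Lpp slightly above it. Tns1, Itga1 and Vcl lie within the band, and Itga3 lies at its lower edge.

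Promoters were read from RefSeq annotation on GRCm38.p6, a different build from that of the counts, and are shown so that the letters before the start of members that did and did not share a direction can be compared. The set searched holds 38 promoters of 28 members, from 250 bases before to 50 after the start. No promoter of Itga6, Itga7, Itgb3, Lims2, Nexn, Parva, Ptk2, Pxn or Tln2 was in this set. The set need not hold every annotated promoter, so their absence is not evidence of a gap in the annotation. Percentages of all promoters refer to the 32851 promoters of this set. Both strands were searched for 4 motifs that may overlap one another. The STAT motif TTCNNNGAA, bound by the STAT proteins that gp130 cytokines activate, was in 1 of the 38 promoters, of Lpp, and in 8.30% of all 32851 promoters. The AP-1 motif TGANTCA was in 4 of the 38 (10.5%), those of Actn4, Itga3, Itga9 and Zyx, and in 7.81% of all promoters. The TEAD motif CATTCC was in 6 of the 38 (15.8%), those of Actn4, Cav3, Flna, Itgb1, Lpp and Vcl, and in 14.7% of all promoters.

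The CArG box, the motif bound by serum response factor, was in 6 of the 38 promoters (15.8%) and in 1.63% of all promoters. These 6 belong to 5 members, and each is printed 5′ to 3′ on the strand of its gene, with the box in capitals. Positions count from the gene start at 0.
Fermt2, chr14:45530250-45530279, minus strand, box from -204 to -195: tccttcatttCCATAAAAGGgcagcgctcc
Fhl1, chrX:56779571-56779600, plus strand, box from -102 to -93: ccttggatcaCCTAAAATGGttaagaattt
Fhl2, chr1:43163973-43164002, minus strand, box from -31 to -22: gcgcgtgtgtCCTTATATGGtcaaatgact
Fhl2 (other start), chr1:43196838-43196867, minus strand, box from -96 to -87: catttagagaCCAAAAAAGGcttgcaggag
Itgb6, chr2:60673724-60673753, minus strand, box from -50 to -41: cacctgacttCCTTATAAGGtgaatgagga
Vcl, chr14:20929161-20929190, plus strand, box from -227 to -218: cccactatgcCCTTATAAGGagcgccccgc

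The boxes of Itgb6 and Vcl have the same letters, and these members lay on opposite sides of no change with OSM, at 0.44 and -0.72. Fermt2, Fhl1 and Fhl2 were at 0.08, 0.25 and 0.18. A match describes letters and not a bound site.

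The promoters of Cav3, the member with the largest ratio, and of Zyx, which had the largest ratio among members that were not called, are printed from 250 bases before to 30 after the start, in capitals where a motif was found. They share none of the 4 motifs. In Cav3 the capitals are the TEAD motif on the other strand, and in Zyx the AP-1 motif.
Cav3, chr6:112459255-112459534, plus strand: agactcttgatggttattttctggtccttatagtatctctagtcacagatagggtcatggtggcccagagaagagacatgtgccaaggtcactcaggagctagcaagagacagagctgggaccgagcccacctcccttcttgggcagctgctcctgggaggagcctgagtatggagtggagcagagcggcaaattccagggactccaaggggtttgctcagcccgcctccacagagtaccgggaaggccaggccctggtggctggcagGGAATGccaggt
Zyx, chr6:42349578-42349857, plus strand: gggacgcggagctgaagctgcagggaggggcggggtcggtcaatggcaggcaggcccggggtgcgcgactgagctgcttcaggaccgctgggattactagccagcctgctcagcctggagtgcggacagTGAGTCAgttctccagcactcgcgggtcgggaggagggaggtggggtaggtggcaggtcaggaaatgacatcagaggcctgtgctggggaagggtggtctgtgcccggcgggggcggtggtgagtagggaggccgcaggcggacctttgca

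Other genes of the pathway were taken from 5 lists. Of 96 compared in OSM against vehicle, 6 were called higher and 3 lower, with a median log2 fold change of 0.16. These are 6.25% and 3.13% of the genes compared, where over all genes 3.74% were called higher and 5.43% lower, and the counts in single lists are small. The 2 called higher among 13 membrane partners of integrins were Cd44, the hyaluronan receptor, with 632 counts with vehicle, 549 with IL-6 and 3968 with OSM (2.41, 2.29 to 2.53), and Sdc4 (syndecan-4, a co-receptor for fibronectin), with 440, 416 and 1956 counts (1.91, 1.76 to 2.06). With IL-6, Cd44 was below no change, at -0.30 (-0.47 to -0.14), and the interval of Sdc4 held no change.

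Among 8 other caveolar genes, Cavin3, a coat protein of caveolae, was called higher, with 417 counts with vehicle, 506 with IL-6 and 1249 with OSM (1.34 on the log2 scale), and 0 were called lower. By the weaker description 4 of the 8 were above no change with OSM and 3 below. Those below were Cavin2 at -1.07 (-1.34 to -0.81), Pacsin2 at -0.77 and Cavin4, the muscle cavin, at -0.24.

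Among 34 other adaptors, 2 were called higher and 2 lower with OSM. Those lower were Nebl (nebulette of the Z-disc, from 6426 to 2008 counts, -1.92) and Svil (supervillin, from 12075 to 6178, -1.21). The median of genes as long as Nebl was -0.73. Those higher were Pdlim4 (68 to 262 counts, 1.70) and Fermt3, the kindlin of blood cells, which had only 8 counts with vehicle, 31 with IL-6 and 74 with OSM. The sum of macrophage and leukocyte markers given above was also highest with OSM, mostly through Cd68. Lyz2 was above no change too, and the intervals of Csf1r and Adgre1 held it. Ptprc, C1qa, C1qb and Cd3e were at 0, and Itgam had too few counts to compare. Among other integrin chains of blood cells, Itgb2 and Itgad were below no change with OSM at low counts. Itgb2 went from 10 to 2 counts (-2.56, -5.79 to -0.33) and Itgad from 32 to 12 (-1.66, -2.75 to -0.66). Itga2b was above no change, from 30 to 69 counts (0.96, 0.32 to 1.63), and the intervals of Itgal and Itgax held it. The part of such cells in Fermt3 was not tested.

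Of 32 other signalling genes, Ptpn12 (a phosphatase acting on p130Cas) was called higher, from 1246 to 3438 counts (1.22), and Sos1, a Ras activator, lower, from 1302 to 688 (-1.16). In the list of other integrin subunits, which also holds genes named for binding a beta chain, 9 of 18 could be compared and 0 were called. The most abundant of these by fpkm was Itgb1bp2 (melusin, a muscle protein that binds the beta 1 chain), at 34.2 fpkm with vehicle and 48.4 with OSM. In IL-6 against vehicle, Efs (6 to 36 counts) was the only called gene of the 5 lists.

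**Figure D5:**
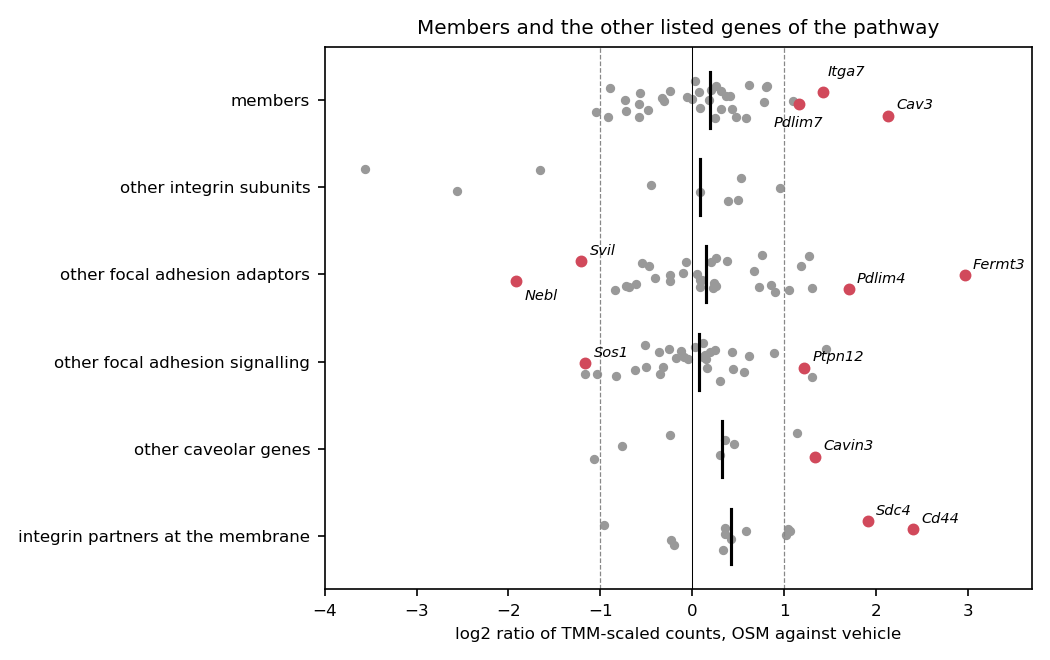
Log2 ratio of TMM-scaled counts in OSM against vehicle (x axis) for the members and 5 lists of other pathway genes (y axis), 1 point per gene, with bars for medians and dashed lines at 2-fold. Called genes are red and named: 3 members, Cav3, Itga7 and Pdlim7, and 9 other genes, of which Cd44, Sdc4, Fermt3, Pdlim4, Ptpn12 and Cavin3 lie to the right and Nebl, Svil and Sos1 to the left.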

How the data were processed

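RNA of cultured ACMs was pooled per condition and sequenced from both ends. The authors deposited whole-number counts per gene, not normalized, and FPKM made from those counts. The submitters' processing notes name fastp, HISAT2 2.2.1, featureCounts 2.0.6 and edgeR 4.0.16 with the mm39 build, and the methods name other versions of featureCounts and edgeR. From the counts, TMM factors were computed per pair of libraries with edgeR 4.0.16 in R 4.3.3, and genes were compared where a pair summed to 10 counts or more. Intervals are Clopper-Pearson at 95%, computed with scipy 1.17.1. The rule was tested on simulated data, with the outcome checked only where no variation beyond counting was added. The planted changes were larger than those of Itga7 and Pdlim7, so calls near 2-fold were not tested. The floor for a count of 0 was 3 counts per library. Exon overlap used GENCODE M39 on GRCm39, where all 37 identifiers were found, and a copy was at least 100 bases at 97% identity.

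Members and lists were chosen with earlier results of these data known. Named in full were called members, the 5 largest and 5 lowest log2 fold changes with OSM among members with at least 100 counts over the pair, and the 5 highest FPKM with vehicle, and of the other lists the called genes. The other members are given by role. Itgb1bp2, Itgb2, Itgad, Itga2b, Itgal, Itgax, Efs, Cavin2, Cavin4, Pacsin2, Cd68, Csf1r, Lyz2, Adgre1, Itgam, Acta2, Ryr2 and Ttn were singled out once their values were known. Alternatives were DESeq2 1.42.0 size factors, total counts, TMM over the 3 libraries, other filters, call rules and assumed variation, FPKM with a pseudocount of 0.1, and removal of length class medians. 1 gene of the other adaptors is not reported here and was left out of its list.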

Additional observations from a re-analysis of the deposited data

Results flagged for a closer look

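For 3 members the OSM and IL-6 libraries lay on opposite sides of the vehicle library, with both counting intervals clear of no change. Itgb6 had a log2 fold change of 0.44 with OSM and -0.32 with IL-6. Tln2 was at -0.57 with OSM and 0.11 with IL-6. Actn4 was at 0.37 with OSM and -0.13 with IL-6. Each condition is 1 library and both ratios use the same vehicle library, so the difference between the cytokines was not tested.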

How the results depend on the processing

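The count of members called in OSM against vehicle was 3. It became 5 by the point estimate or with the ratio of FPKM (Itgav and Zyx added), 10 with a 1.5-fold limit (6 higher, 4 lower) and 1 (Cav3) with an assumed coefficient of variation of 0.2. In OSM against IL-6 it went from 3 to 11 (7 higher, 4 lower) with the 1.5-fold limit and to 1 with the coefficient of 0.2. The share of all genes called under these changed rules was not computed. These counts therefore cannot be read as a result about the members. The median of the members in OSM against vehicle moved from 0.19 to 0.34 when length class medians were removed. These changes follow from the construction of each alternative. Under the other alternatives the counts stayed within 1.5 times and the medians within the counting error of a typical member, among them DESeq2 size factors, TMM over the 3 libraries and both filters on low counts. With total counts Pdlim7 was no longer called in OSM against vehicle (1.10). In IL-6 against vehicle 0 members were called under all 11 alternatives. No named member that was called changed direction. No paired analysis was possible because each condition is 1 library, and for the same reason no replicate could be left out. At the lowest counts (Ilk, Itgb3, Src, Lims2, Cav1) depth limits what can be seen. For Ilk the part of exon overlap in its count was not tested.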
